A study of Homo sapiens with 13 samples.

Results

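The high mobility group (HMG) chromatin proteins described here are the products of 8 genes, HMGB1, HMGB2, HMGB3, HMGA1, HMGA2, HMGN1, HMGN2 and HMGN3. They were taken by name from a raw count table of 67882 genes, and all 8 were among the 15734 genes tested. The RNA came from PC3, an established human prostate cancer cell line, in which a short hairpin RNA lowers TIMP1, a secreted inhibitor of metalloproteinases; every group carries the hairpin. Cells were kept for 48 h with vehicle (Vehicle, 3 libraries), the taxane Docetaxel at 1 nM (4 libraries), the retinoid Adapalene at 5 µM (3 libraries) or both drugs (Combo, 3 libraries; its doses are not restated in the labels). Docetaxel stabilises microtubules, and adapalene activates retinoic acid receptors. Replicates are described as technical in the design text; the p-values therefore measure the spread between technical replicates, and a hairpin-free control was not analysed here.

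HMG proteins are small, abundant, non-histone proteins that bend, open or loosen chromatin. HMGB proteins bend DNA with HMG boxes, and HMGB1 released from a cell acts as a danger signal. HMGA proteins bind the minor groove of AT-rich DNA through AT-hooks, are high in embryonic and tumour cells, and have been described in the heterochromatin foci of senescent cells. HMGN proteins bind the nucleosome itself and, like the other HMG families, compete with linker histone H1 for chromatin. Loss of HMGB2 is used as a mark of entry into senescence.

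Library totals ran from 11948720 to 16235041 counts, and the 8 genes together took 0.261 to 0.389% of them. A single member received from 560 counts (HMGN3, lowest library) to 37080 counts (HMGA1, highest library). Mitochondrially encoded genes took over 2% of counts in 4 libraries, Vehicle 3, Docetaxel 4, Adapalene 3 and Combo 3, and calls of members that change without them are given with the comparison. The epithelial label fits the keratins and adhesion genes KRT8, KRT18, KRT19, EPCAM and CDH1, whose summed level was 2348 to 3881 CPM (counts scaled to library size by TMM), while the prostate secretory genes KLK2 and KLK3 had at most 1 count in any library. Leukocyte markers summed to 1.28 to 8.45 CPM, with 3 of 7 at 3 counts or fewer. This sum was 6.68 to 8.45 CPM with Docetaxel and 1.28 to 2.68 CPM with Vehicle, and of its 2 tested genes ITGAM was called higher with Docetaxel (5.18 CPM on average, against 0.568 CPM with Vehicle) and PTPRC was not. The sum of 7 fibroblast markers was 44.4 to 48.7 CPM with Adapalene, 37.7 to 50.8 CPM with Combo and 25.7 to 33.5 CPM with Vehicle, of which COL1A1 made up most (42.9, 40.7 and 25.8 CPM on average) and was the 1 gene called of 3 tested, in both comparisons with Vehicle. The epithelial sum was 2925 to 3394 CPM with Vehicle and 2423 to 2533 CPM with Adapalene. The part of these sums in the results was not tested. In bulk RNA, fewer cells in a state and less RNA per cell cannot be told apart.

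Promoter sequence is shown for the members that moved most and for HMGA1, because members that fall together invite a look at what their promoters share. RefSeq windows on GRCh38.p14 were listed for 6 of the 8 genes (not for HMGB2 and HMGA2), 10 windows in all, and the 250 bases before the start of the first listed window are printed. Capitals mark CCAAT boxes and the cell cycle element known as CHR (searched as TTTGAA or TTTAAA), on either strand.
HMGB1 (chr13:30465937-30466186, minus strand): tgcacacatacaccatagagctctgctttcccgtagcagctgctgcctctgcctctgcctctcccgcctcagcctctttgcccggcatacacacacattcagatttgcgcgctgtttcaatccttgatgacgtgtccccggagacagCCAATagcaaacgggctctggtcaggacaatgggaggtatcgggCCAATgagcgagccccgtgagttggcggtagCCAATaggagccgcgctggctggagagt
HMGB3 (chrX:150983085-150983334, plus strand): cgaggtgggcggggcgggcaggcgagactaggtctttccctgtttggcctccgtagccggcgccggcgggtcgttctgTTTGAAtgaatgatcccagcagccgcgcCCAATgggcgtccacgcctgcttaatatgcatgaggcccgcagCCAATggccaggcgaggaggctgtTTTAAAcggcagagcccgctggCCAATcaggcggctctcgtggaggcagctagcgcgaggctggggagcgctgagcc
HMGN2 (chr1:26472190-26472439, plus strand): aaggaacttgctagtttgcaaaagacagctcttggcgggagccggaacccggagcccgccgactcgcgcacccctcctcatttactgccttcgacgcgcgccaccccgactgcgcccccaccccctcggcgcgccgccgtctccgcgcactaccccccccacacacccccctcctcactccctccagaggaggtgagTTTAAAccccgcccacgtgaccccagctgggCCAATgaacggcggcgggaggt
HMGA1 (chr6:34236623-34236872, plus strand): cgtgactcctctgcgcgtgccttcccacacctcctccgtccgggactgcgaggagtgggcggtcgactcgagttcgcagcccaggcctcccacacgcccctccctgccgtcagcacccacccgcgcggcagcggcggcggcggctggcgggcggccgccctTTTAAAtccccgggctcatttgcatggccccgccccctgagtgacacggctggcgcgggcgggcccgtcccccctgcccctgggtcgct
The HMGB1 and HMGB3 windows each hold 3 CCAAT boxes, and 2.93% of 35116 promoter windows of the same length hold 3 or more. The HMGB3 window also holds 2 CHR matches and the HMGB1 window 0. The HMGN2 window holds 1 CCAAT box, as at least 1 is held by 32.01% of windows, and 1 CHR match, as 21.86% of windows hold at least 1. The HMGA1 window holds a CHR match and no CCAAT box, and the windows of HMGN1 and HMGN3, not printed, hold 2 CCAAT boxes each, as 9.53% of windows hold at least 2. Later listed windows of HMGB1 hold 1 and 0 CCAAT boxes, and those of HMGB3 and HMGA1 0 and 1. The later HMGB1 window with 1 CCAAT box also holds 1 CHR match. A search for E2F sites gave 0 matches in all 10 windows, where 4.06% of all windows hold a match. These are letter matches and were not tested as sites.

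HMGA2 messenger RNA is a textbook target of the let-7 microRNA family, which pairs with its 3′ untranslated region. The mature let-7a sequence and the 4 stretches of the HMGA2 principal transcript that match its seed are shown because HMGA2 differed from the other members below. Capitals mark bases 2 to 8 of the microRNA and the matching CTACCTC in the messenger RNA, and positions count from the base after the stop codon.
hsa-let-7a-5p: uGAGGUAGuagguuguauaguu
HMGA2 7 to 28: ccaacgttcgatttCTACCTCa
HMGA2 1242 to 1263: cccactactcaataCTACCTCt
HMGA2 1654 to 1675: tgacttgcaaagacCTACCTCc
HMGA2 2507 to 2528: atcaaaacacactaCTACCTCt
The same 7 letters occur once in the 3′ region of HMGA1 and in none of the other 6 members (regions of 385 to 4653 bases). MicroRNA levels were not measured in these polyadenylated libraries.

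Among Vehicle libraries, HMGA1 was the most abundant member per length, at 1023 ± 95.2 CPM per kb of exon (SD, n = 3). HMGN2 followed at 114 ± 7.24 CPM per kb. HMGN1 (63.8 ± 1.33), HMGN3 (60.8 ± 4.73) and HMGB2 (58.3 ± 4.25 CPM per kb) lay within their spread of one another. HMGB1 (39.6 ± 1.82) and HMGB3 (37.4 ± 1.87 CPM per kb) likewise did not separate beyond their spread, and HMGA2 was lowest at 6.81 ± 0.851 CPM per kb. The ends of this order do not depend on the length used: counted per kb of the principal transcript, a length chosen after seeing the data, HMGA1 reached 1103 and HMGA2 23.4 CPM per kb. The middle does depend on it, since HMGN1, whose exons include long alternative ends, moved from 63.8 to 235.5 CPM per kb, beside HMGN2 at 241.

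**Figure D1:**
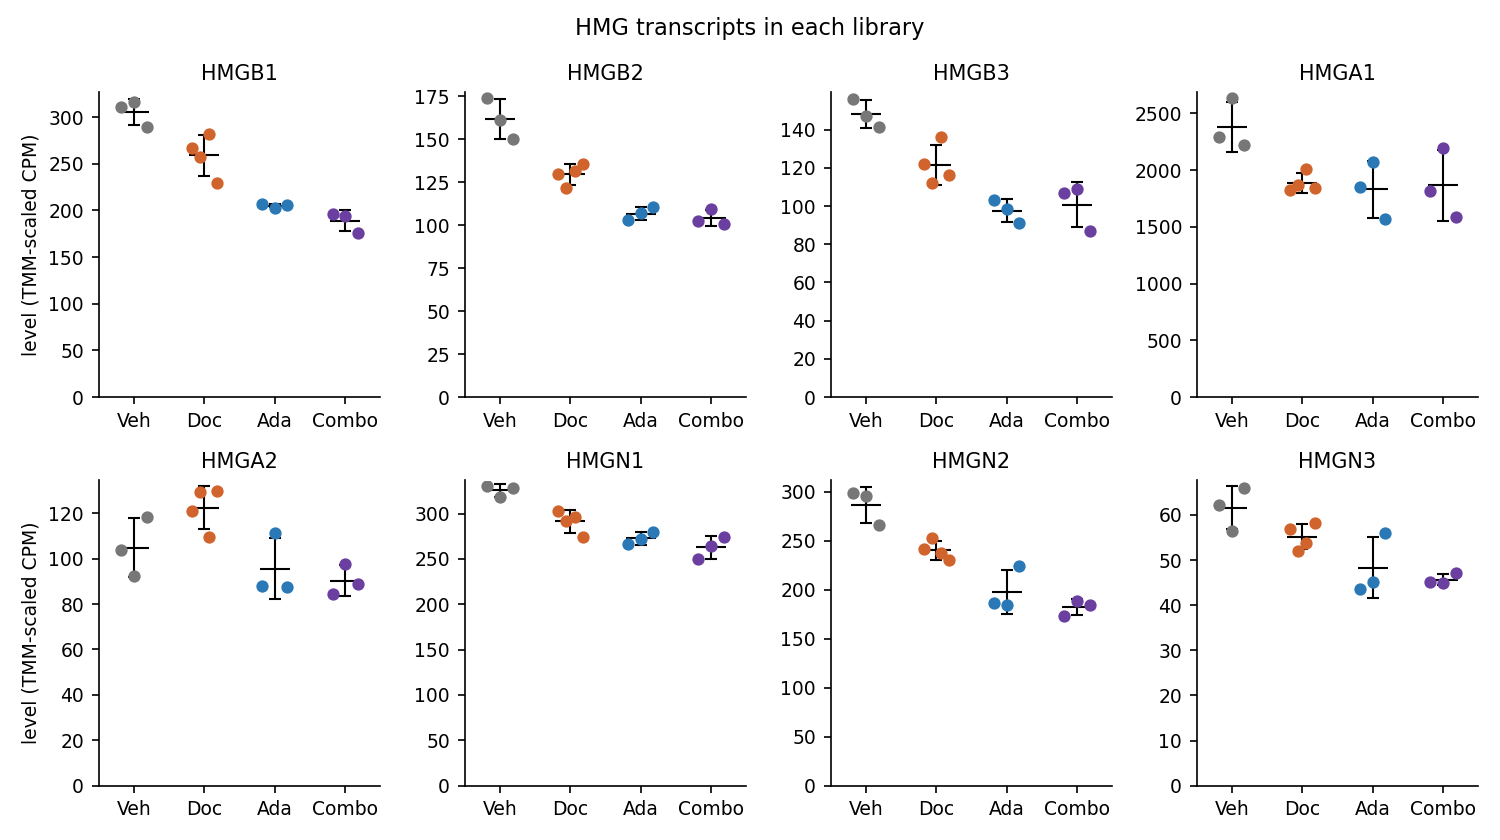
Level of each HMG gene in every library, in TMM-scaled CPM on a linear axis from 0, for Vehicle (Veh), Docetaxel (Doc), Adapalene (Ada) and Combo. Points are libraries and black bars the mean and SD. The Vehicle points lie above all Adapalene and Combo points for every gene except HMGA2.

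The 3 HMGB genes fell with each drug and fell further with adapalene than with docetaxel. Gene positions are given on GRCh38. HMGB1 (ENSG00000189403, chromosome 13, 30456704 to 30617597), the DNA-bending protein that is also a danger signal, stood at 311, 316 and 289.7 CPM in Vehicle. It measured 267, 257, 282 and 230.0 CPM with Docetaxel, 207, 203 and 206 CPM with Adapalene, and 197, 194 and 176 CPM with Combo. The 4 groups form a descending series, Vehicle, Docetaxel, Adapalene, Combo, in which no library of a group reached into the next. Against Vehicle the log2 change was −0.24 (SE 0.073, edgeR adjusted p = 0.0255) with Docetaxel, −0.57 (SE 0.0788, adjusted p = 0.00031) with Adapalene and −0.69 (SE 0.0789, adjusted p = 4.44e-05) with Combo, a loss of 38.2% in the last.

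HMGB2 (ENSG00000164104, chromosome 4, 173331695 to 173335125), the paralog linked to proliferation, measured 174, 161 and 150.3 CPM in Vehicle and 130.0, 121, 131 and 136 CPM with Docetaxel. With Adapalene it measured 103, 107 and 111 CPM, and with Combo 103, 109 and 101 CPM. Vehicle lay above Docetaxel, and Docetaxel above the other two groups, while Adapalene and Combo overlapped. The change against Vehicle was −0.32 (SE 0.0664, edgeR adjusted p = 0.00296) with Docetaxel, −0.60 (SE 0.0718, adjusted p = 0.000131) with Adapalene and −0.64 (SE 0.0717, adjusted p = 4.31e-05) with Combo. HMGB2 was called lower with Docetaxel under all 18 alternative settings tried, from −0.39 to −0.27, and it was the single member of which this was true.

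HMGB3 (ENSG00000029993, chromosome X, 150980509 to 150990775), the X-linked relative, measured 156, 147 and 141 CPM in Vehicle, 122, 112, 136 and 116 CPM with Docetaxel, 103, 98.7 and 91.1 CPM with Adapalene and 107, 109 and 87.0 CPM with Combo. Its Adapalene and Combo libraries overlapped, and both groups lay below all Docetaxel libraries. The changes were −0.29 (SE 0.0868, edgeR adjusted p = 0.0243), −0.60 (SE 0.094, adjusted p = 0.000747) and −0.56 (SE 0.0937, adjusted p = 0.00072) for Docetaxel, Adapalene and Combo. The ratio of HMGB2 to HMGB1 counts averaged 0.529 ± 0.0255 in Vehicle (SD, n = 3) and 0.504 ± 0.0577 with Docetaxel (n = 4). It averaged 0.520 ± 0.0205 with Adapalene (n = 3) and 0.552 ± 0.0262 with Combo (n = 3). Docetaxel 4 had the highest Docetaxel ratio, 0.589. The other Docetaxel libraries, down to 0.466, lay below all Vehicle libraries (0.511 to 0.558).

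The HMGN genes, which encode nucleosome-binding proteins, were also lower with adapalene, HMGN2 by the most. HMGN2 (ENSG00000198830, chromosome 1, 26472450 to 26475972) measured 299, 296 and 266 CPM in Vehicle, 241, 253, 237 and 230.0 CPM with Docetaxel, 186, 184 and 224 CPM with Adapalene and 173, 189 and 185 CPM with Combo. All Vehicle libraries lay above all treated ones, and Adapalene 3 lay nearest to the Docetaxel libraries. The changes of HMGN2 were −0.25 (SE 0.077, edgeR adjusted p = 0.0246) with Docetaxel, −0.53 (SE 0.083, adjusted p = 0.000737) with Adapalene and −0.66 (SE 0.0831, adjusted p = 9.52e-05) with Combo.

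HMGN1 had smaller values with tight replicates. HMGN1 (ENSG00000205581, chromosome 21, 39342315 to 39349647) measured 330.4, 318 and 329 CPM in Vehicle, 303, 292, 296 and 274 CPM with Docetaxel, 266, 272 and 280.1 CPM with Adapalene and 249, 264 and 275 CPM with Combo. Its Vehicle libraries lay above all others. The change with Docetaxel did not pass the test (−0.16, SE 0.0613, edgeR adjusted p = 0.0661; 0.0323 to 0.171 over the alternatives). HMGN1 fell by 0.26 with Adapalene (edgeR adjusted p = 0.0154) and by 0.31 with Combo (adjusted p = 0.00359), each with an SE of 0.0658.

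HMGN3 (ENSG00000118418, chromosome 6, 79201245 to 79234738), the least counted member, measured 62.2, 56.5 and 66.1 CPM in Vehicle, 56.8, 51.9, 53.8 and 58.1 CPM with Docetaxel, 43.7, 45.2 and 56.1 CPM with Adapalene and 45.0, 44.9 and 47.1 CPM with Combo. Docetaxel overlapped Vehicle (−0.16, SE 0.0872, edgeR adjusted p = 0.195), whereas Adapalene (−0.35, SE 0.0943, adjusted p = 0.0182) and Combo (−0.43, SE 0.0941, adjusted p = 0.00409) lay below it. The Adapalene call is fragile: it was lost when Vehicle 1, Vehicle 3, Adapalene 1 or Adapalene 2 was left out (adjusted p 0.0588 to 0.0896). HMGN1 shared that dependence on Vehicle 1 and Adapalene 1 (0.0572 and 0.0665 without them).

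Between the HMGA genes the pattern split. HMGA1 (ENSG00000137309, chromosome 6, 34236873 to 34246231), the abundant AT-hook protein, measured 2290.5, 2633 and 2218 CPM in Vehicle, 1823, 1870.1, 2009 and 1840.2 CPM with Docetaxel, 1847, 2072 and 1566 CPM with Adapalene and 1813, 2198 and 1585 CPM with Combo. All treated libraries lay below all Vehicle libraries, and the treated groups overlapped one another. The changes were close to each other, −0.34 (SE 0.114, edgeR adjusted p = 0.0397) with Docetaxel, −0.38 (SE 0.122, adjusted p = 0.0415) with Adapalene and −0.35 (SE 0.122, adjusted p = 0.0449) with Combo. In Vehicle, Adapalene and Combo the lowest HMGA1 library was the one with over 2% mitochondrial counts. Without those libraries the changes were −0.37 (adjusted p = 0.0119), −0.33 (adjusted p = 0.0399) and −0.30 (adjusted p = 0.0628), and with the mitochondrial share as a covariate −0.33, −0.33 and −0.36 (adjusted p = 0.0052, 0.0149 and 0.00511). All 3 calls were lost when libraries were scaled by their totals alone, with −0.30 (adjusted p = 0.0618), −0.33 (adjusted p = 0.0666) and −0.29 (adjusted p = 0.0803). Each was also lost without Vehicle 1 and without Vehicle 2 (adjusted p 0.0646 to 0.181), the Docetaxel call also without Docetaxel 1, 2 or 4 (0.076 to 0.0993), the Adapalene call without Adapalene 1 or 3 (0.0989 and 0.136) and the Combo call without Combo 1 or 3 (0.0955 and 0.184).

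HMGA2 (ENSG00000149948, chromosome 12, 65824131 to 65966295), the fetal paralog that most adult tissues silence, measured 104, 92.4 and 119 CPM in Vehicle and 121, 129, 109.7 and 130.0 CPM with Docetaxel. With Adapalene it measured 88.0, 111 and 87.5 CPM, and with Combo 84.5, 97.6 and 88.8 CPM. None of the 3 treated groups separated from Vehicle. The log2 value was 0.22 with Docetaxel (SE 0.102, edgeR adjusted p = 0.118; 0.014 with limma-voom), −0.13 with Adapalene (SE 0.109, adjusted p = 0.416) and −0.22 with Combo (SE 0.109, adjusted p = 0.155). HMGA2 did differ between the drugs: it was lower with Combo than with Docetaxel, with no overlap (−0.44, SE 0.103, edgeR adjusted p = 0.00661, called under all 18 alternatives). It was higher with Docetaxel than with Adapalene (0.36, SE 0.103, adjusted p = 0.0164), a call lost without Adapalene 1 (adjusted p = 0.0897), without Adapalene 3 (adjusted p = 0.0505) or without the 4 libraries high in mitochondrial counts (adjusted p = 0.0616).

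The ratio of HMGA2 to HMGA1 counts put these changes side by side within each library. It was 0.0446 ± 0.0092 in Vehicle (SD, n = 3), 0.0652 ± 0.00727 with Docetaxel (n = 4), 0.0524 ± 0.00426 with Adapalene (n = 3) and 0.0490 ± 0.00616 with Combo (n = 3). The lowest Docetaxel ratio, 0.0546, lay just above the highest Vehicle ratio, 0.0534.

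**Figure D2:**
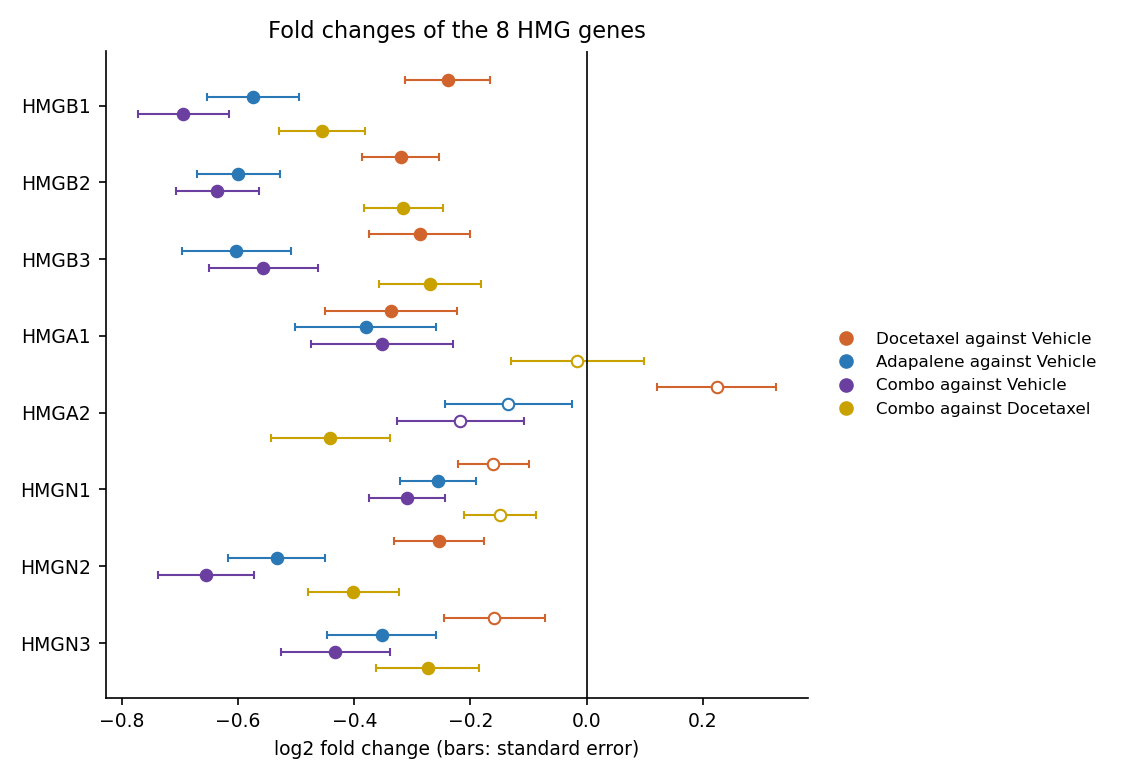
Log2 fold change of each HMG gene in 4 comparisons, with bars of 1 standard error. Filled points passed the edgeR test at an adjusted p of 0.05 and open points did not; HMGA2 alone has a value above 0, with Docetaxel.

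Counted over the family, docetaxel lowered 5 of the 8 members (HMGB1, HMGB2, HMGB3, HMGA1 and HMGN2) and raised 0, where 12.8% of all tested genes were called lower and 13.2% higher. The members' median log2 change was −0.25, against −0.02 for all genes. For the 0 raised by edgeR, 1 member (HMGA2) was higher at an unadjusted p under 0.05, 1 by limma-voom and 0 by DESeq2. The count of 5 rests on few libraries: without Vehicle 1, or without Vehicle 2, HMGB2 alone was called, and without Docetaxel 1, 2 or 4 the count was 2.

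Adapalene lowered 7 members, all but HMGA2, and raised 0, where 9.16% of genes were called lower and 9.25% higher. The median of the members was −0.46, against 0.02 for all genes. Without Vehicle 1 or without Adapalene 1 the count was 4, and those 4 were HMGB1, HMGB2, HMGB3 and HMGN2 in both cases. Combo lowered the same 7 members and raised 0, where 12.3% of genes were called lower and 13.5% higher, with a member median of −0.49 against 0.02. For these zeros, 0 members were higher at an unadjusted p under 0.05, by DESeq2 or by limma-voom. Both comparisons and that for docetaxel use the same 3 Vehicle libraries.

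Compared directly, the single drugs differed. Docetaxel left 5 members higher than Adapalene (HMGB1, HMGB2, HMGB3, HMGA2 and HMGN2) and 0 lower, where 14.1% of genes were called higher and 15.6% lower. The HMGB differences were 0.34, 0.28 and 0.32, and that of HMGN2 was 0.28 on the log2 scale (edgeR adjusted p 0.00383 to 0.0148). Without Adapalene 1 the count was 3, the HMGB genes, and HMGN2 was also lost without Adapalene 2. HMGN3, not called with all libraries, was called higher without Adapalene 3 (0.31, adjusted p = 0.00947), without the 4 libraries high in mitochondrial counts (0.29, adjusted p = 0.0123) and with the mitochondrial share as a covariate (0.24, adjusted p = 0.0229). For the 0 lower, no member was lower at an unadjusted p under 0.05, and the count was 0 by DESeq2 and by limma-voom.

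Adding adapalene to docetaxel lowered 6 members (HMGB1, HMGB2, HMGB3, HMGA2, HMGN2 and HMGN3) and raised 0, where 11.2% of genes were called lower and 12.8% higher. For the 0 raised by edgeR, no member was higher at an unadjusted p under 0.05, and the count was 0 by DESeq2 and by limma-voom. HMGB1 had the largest of these values at −0.46 (SE 0.0743, edgeR adjusted p = 0.000756), followed by HMGA2, then HMGN2 at −0.40 (SE 0.0782, adjusted p = 0.0024) and HMGB2 at −0.32 (SE 0.0675, adjusted p = 0.00408). HMGN1 (−0.15, adjusted p = 0.0914) and HMGA1 (−0.02, 95% interval −0.26 to 0.23, adjusted p = 0.934) were not called. Without Docetaxel 1 or without Combo 3 the count was 4, with HMGB3 and HMGN3 lost. The HMGN3 call was also lost without Docetaxel 4, Combo 1 or Combo 2 (adjusted p 0.0602 to 0.103), and the HMGB3 call without Docetaxel 3 (adjusted p = 0.099). Without the 4 libraries high in mitochondrial counts HMGB3 was not called (−0.19, adjusted p = 0.0872) and HMGN1 was (−0.21, adjusted p = 0.0238).

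Adding docetaxel to adapalene gave no call. For all 8 members the edgeR adjusted p was 0.999, where 0.0381% of all genes were called in either direction; 0 members passed an unadjusted p of 0.05, DESeq2 or limma-voom. HMGB1 was the member whose Combo libraries all lay below the Adapalene libraries, at −0.12 with a 95% interval of −0.29 to 0.05. The interval of HMGB2 was −0.19 to 0.12, that of HMGN2 −0.30 to 0.06 and that of HMGA1 −0.23 to 0.29. The data leave changes within those bounds possible.

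Whether the 2 drugs add on the log scale was tested as an interaction, the effect of adapalene with docetaxel minus its effect without. No member was called by edgeR or DESeq2, where 1.44% and 3.08% of all genes were called. For 7 of the 8 members the measured Combo value was less negative than the sum of both single-drug values. Of all tested genes, 48.57% had an interaction value below 0. The 8 values come from the same libraries and are not separate observations. HMGB2 summed to −0.92 and measured −0.64 (interaction 0.28, SE 0.0981, unadjusted p = 0.0108, adjusted p = 0.157). HMGB3 summed to −0.89 and measured −0.56 (0.33, SE 0.128, unadjusted p = 0.0196, adjusted p = 0.202), and HMGA1 summed to −0.72 and measured −0.35 (0.36, SE 0.167, unadjusted p = 0.0444, adjusted p = 0.281). These 3 members were the ones under an unadjusted p of 0.05. HMGB2 passed the test with limma-voom (0.35, adjusted p = 0.0187) and without the 4 libraries high in mitochondrial counts (0.41, edgeR adjusted p = 0.0427). Those settings called 9.42% and 4.01% of all genes. HMGA2 went the other way, with a sum of 0.09 and a measured −0.22 (−0.31, SE 0.149, adjusted p = 0.317).

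**Figure D3:**
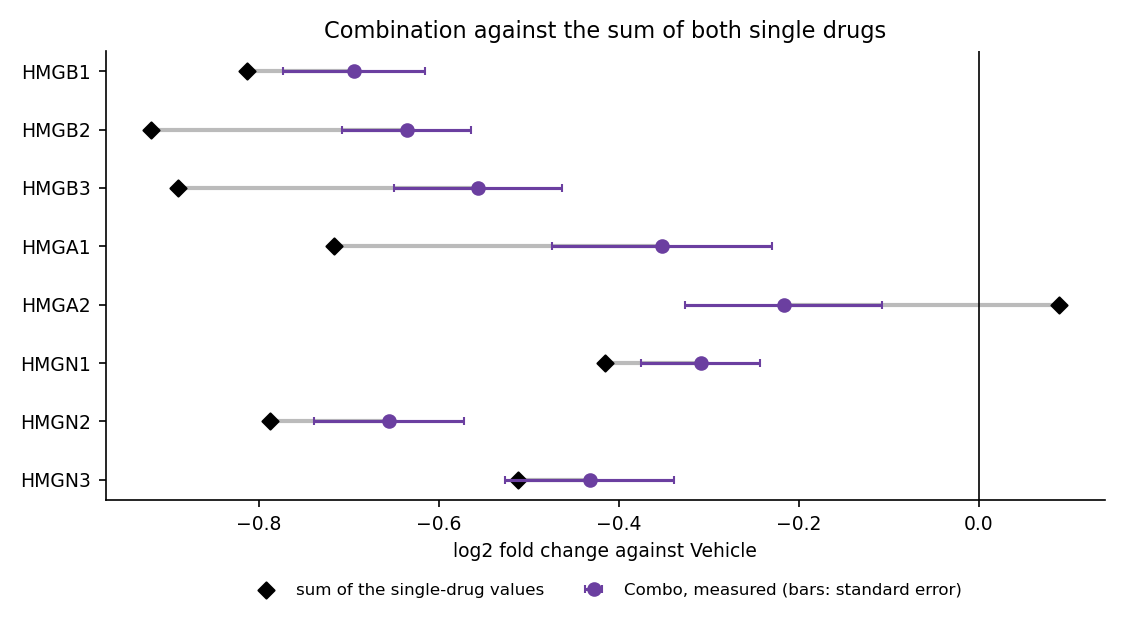
Sum of the 2 single-drug log2 changes (black diamonds) and the measured Combo change (purple circles, bars of 1 standard error) against Vehicle for each HMG gene. The circle lies to the right of the diamond for all genes but HMGA2; the widest gaps, 0.36 for HMGA1 and 0.33 for HMGB3, did not pass the adjusted test.

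The members share sequence, so reads could be traded between them and their copies. Coding sequences of HMGB1 and HMGB2 are 77.0% identical over the aligned bases, those of HMGN1 and HMGN2 74.4% and those of HMGA1 and HMGA2 67.0%. Of all 120-base stretches of the principal transcript, 10.2% of HMGN2 and 5.96% of HMGB1 also occur in another gene, mostly the pseudogenes HMGN2P5 and HMGB1P5, and 3.32% of HMGN3 occur in HMGN3-AS1. For HMGB2, HMGB3, HMGA1 and HMGA2 the share was 0. Counts on processed pseudogenes were 1.28 to 2.40% of those of HMGB1 and under 0.9% for each other member, and adding them changed no member's call.

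The genes whose levels followed each member most closely over the 13 libraries were taken from 9772 genes at 10 CPM or more. These correlations mix differences between groups with differences between libraries. HMGB1 was nearest to TYW3, HNRNPK, HNRNPA3, ANP32B and SEH1L (Pearson's r 0.977 to 0.980), among which HNRNPK and HNRNPA3 encode RNA-binding proteins and ANP32B a histone chaperone. Among the genes nearest to HMGB2 were CAMKK1, UBA2, SLC25A13 and the kinetochore gene NDC80 (0.966 to 0.974). HMGB3 was nearest to ANP32A (0.987), then MBD2, a reader of methylated DNA, BRD7, SLC25A12 and MAP3K4.

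HMGA1 was nearest to LDOC1 (0.973), PPP1R26, the ETS factor gene ETV4, SRI and LRRC20. HMGA2 was nearest to SETD5 (0.950), CCDC88C, AKAP12, B3GNT5 and the histone methyltransferase gene SETDB1 (0.886), a looser set than for any other member. HMGN1 (PCBP2, RPL5, HNRNPDL, UBE2V2 and HNRNPA3) and HMGN2 (COX11, HIRIP3, HSPE1, CBX3 and HNRNPDL) had HNRNPDL in common. HMGN3 followed HSPA14 (0.953), STXBP4, SNRPE, an unnamed gene and DEPDC1.

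Further genes of the HMG superfamily were read from a list of 17. Of the 14 tested, 1 was higher and 2 lower with Docetaxel, 0 and 6 with Adapalene, and 1 and 6 with Combo. The medians were −0.12, −0.21 and −0.23. Of all tested genes, 13.2% were called higher and 12.8% lower with Docetaxel, 9.25% and 9.16% with Adapalene, and 13.5% and 12.3% with Combo. The Docetaxel counts of this list were near those shares. HMGN5, a nucleosome-binding relative, was lower in all 3 comparisons (−0.43, −0.38 and −0.41, edgeR adjusted p = 0.00534, 0.0208 and 0.0096). HMGN4, a further relative, was not called in any (−0.12, −0.11 and −0.18). SSRP1, the HMG-box subunit of the histone chaperone FACT, TFAM, which packages mitochondrial DNA, UBTF, HMGXB4 and PBRM1 were called lower with Adapalene and with Combo. The Adapalene count was 2 without Vehicle 1.

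Linker histones, which compete with HMG proteins for nucleosomes, were read in the same libraries. Over all tested genes 13.2% were called higher and 12.8% lower with Docetaxel. The shares were 9.25% and 9.16% with Adapalene, 13.5% and 12.3% with Combo, and 12.8% and 11.2% in Combo against Docetaxel. With Docetaxel the 4 linker histone genes described, H1-2, H1-3, H1-4 and H1-10, were all higher, with a median log2 change of 2.61, while 5 of the 8 HMG genes were lower. H1-2 reached 199.9 ± 14.2 CPM with Docetaxel from 44.1 ± 4.01 CPM in Vehicle, and Combo brought it to 77.8 ± 14.6 CPM (0.82, SE 0.113, edgeR adjusted p = 0.000174). H1-3 and H1-4 were below 1 CPM in Vehicle and were higher with Docetaxel by 3.05 and 3.75 on the log2 scale. With Adapalene 0 of the 4 were higher and 1, H1-10, was lower, with Combo 3 were higher and 0 lower, and in Combo against Docetaxel all 4 were lower. The 4 calls with Docetaxel and the 4 in Combo against Docetaxel held when any library was left out. Replication-linked histone messages lack a poly(A) tail and have close copies, so H1-2, H1-3 and H1-4 in polyadenylated libraries need not follow total histone RNA.

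**Figure D4:**
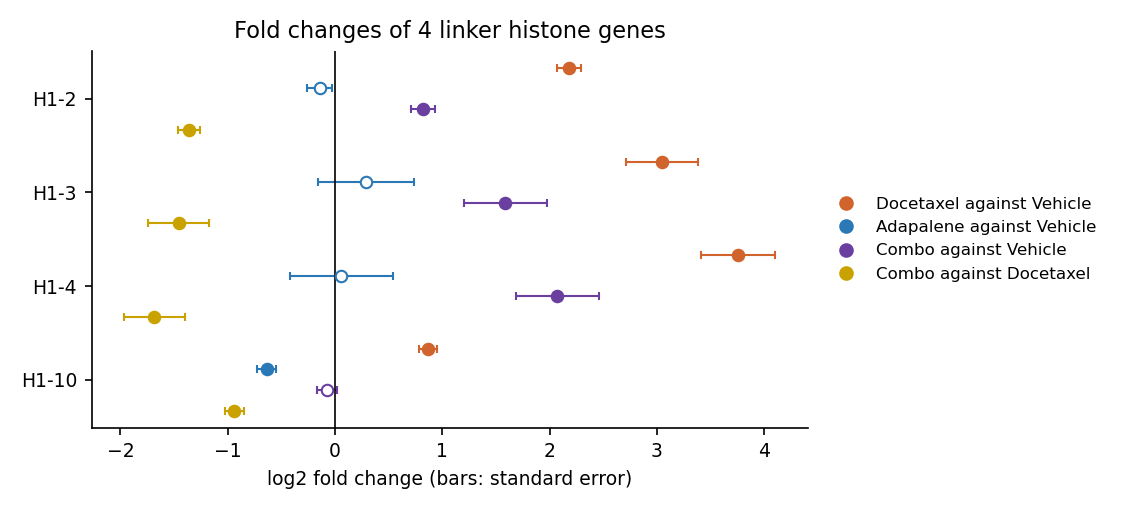
Log2 fold change of 4 linker histone genes in 4 comparisons, with bars of 1 standard error; filled points passed the edgeR test at an adjusted p of 0.05. All 4 Docetaxel points lie above 0 and all 4 points of Combo against Docetaxel lie below it.

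Genes of the SET complex, which holds HMGB2 in the cell, and of nuclear export were lower with adapalene. The 6 tested were SET, ANP32A, ANP32B, APEX1, NME1 and XPO1. Of them, 2 were lower with Docetaxel, 6 with Adapalene and 6 with Combo, with 0 higher in each. Their medians were −0.17, −0.41 and −0.47, and 12.8%, 9.16% and 12.3% of all tested genes were called lower. ANP32A changed by −0.31, −0.66 and −0.67 (edgeR adjusted p = 0.0382, 0.0012 and 0.000635), and SET by −0.11 (not called), −0.41 and −0.41. The Docetaxel count was 1 to 3 with 1 library left out. In proportion it changed most without Vehicle 1, Vehicle 2 or Docetaxel 1, 2 or 4.

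For HMGB1 outside the cell, 4 of 10 listed receptors and partners were tested. CD24, a surface protein that binds HMGB1, was higher with Docetaxel (0.67), Adapalene (0.44) and Combo (0.56, edgeR adjusted p = 0.000113). TLR2 and TLR4 were called higher with Docetaxel (0.40 and 0.98), at 11.2 and 7.43 CPM, and CXCR4 was not called. That Docetaxel count of 3 was 1 to 3 with 1 library left out, with the largest proportional change without Vehicle 1, Vehicle 2 or Docetaxel 1. Over all tested genes 13.2% were called higher with Docetaxel. The receptor gene AGER had 0 counts in every library, but it lies in the major histocompatibility region of chromosome 6, where 139 of 181 protein-coding genes had 0 counts (76.8%, against 13.63% elsewhere), so its 0 is not a measure of its level.

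Among regulators of HMGA2 messenger RNA, 6 of 8 listed genes were tested. Over all tested genes 25.9% were called in either direction with Docetaxel and 18.4% with Adapalene. LIN28A and LIN28B, which block let-7, had at most 14 and 5 counts in any library. IGF2BP2, an RNA-binding protein whose own gene is an HMGA2 target, was lower with Docetaxel (−0.34, SE 0.103, edgeR adjusted p = 0.0237), where HMGA2 was not. IGF2BP3, its relative, was lower with Docetaxel (−0.28) and higher with Adapalene (0.32, edgeR adjusted p = 0.0309) and in Combo against Docetaxel (0.41, adjusted p = 0.00423). The list's 3 calls with Docetaxel became 0 to 2, and its 3 calls with Adapalene 0 to 2, whichever single library was left out. These counts fell most without Vehicle 1, Vehicle 2, or replicate 1 or 2 of the drug compared.

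Senescence marks beside HMGB2 were read from a list of 12. LMNB1, a nuclear lamin whose loss is likewise used as a senescence mark, changed by −0.76 with Docetaxel, −0.76 with Adapalene and −0.92 with Combo (SE 0.117, 0.127 and 0.127), so its Docetaxel value was as large as its Adapalene value, unlike that of HMGB2. CDKN1A, the p21 inhibitor of the cell cycle, was higher by 1.43 with Docetaxel and 1.77 with Combo, and was also called higher with Adapalene. CDKN2A, which encodes p16, was not called in any comparison with Vehicle. In all, 6 marks were higher and 2 lower with Docetaxel, 4 and 1 with Adapalene, and 7 and 1 with Combo. Of all tested genes 13.2% were called higher and 12.8% lower with Docetaxel, 9.25% and 9.16% with Adapalene, and 13.5% and 12.3% with Combo. The second lower mark with Docetaxel was GLB1, which encodes the beta-galactosidase used to stain senescent cells and is known to rise in them. The Adapalene count of 5 was 3 to 7 with 1 library left out. In proportion it changed most without Vehicle 1 or Adapalene 1.

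HMGB2 is also a gene of dividing cells, so cell cycle lists stand beside it. With Docetaxel, Adapalene and Combo, 12.8%, 9.16% and 12.3% of all tested genes were called lower, and 13.2%, 9.25% and 13.5% higher. Of 15 G2 and M phase genes, 7 were lower with Docetaxel (4 without Vehicle 1 or without Vehicle 2), 12 with Adapalene and 13 with Combo, with 0 higher in each and medians of −0.25, −0.76 and −0.80. CCNB1, the mitotic cyclin, changed by −0.15 (not called), −0.96 and −0.89. Of 15 S phase genes, 12 were lower and 0 higher with Docetaxel, 8 and 2 with Adapalene, and 9 and 0 with Combo, with medians of −0.41, −0.36 and −0.41. PCNA, the replication clamp, changed by −0.62, −0.44 and −0.53. The Adapalene count of 10 was 6 to 11 with 1 library left out, with the largest proportional change without Vehicle 1 or Vehicle 2. In Docetaxel against Adapalene, 10 G2 and M phase genes were higher and 1 lower, beside the 5 higher HMG members. Of S phase genes 0 were higher and 7 lower, where 14.1% of all genes were called higher and 15.6% lower. Of 14 tested genes of the DREAM complex and E2F family, which control cell cycle promoters, 4 were lower and 1 higher with Docetaxel, 2 and 0 with Adapalene and 5 and 0 with Combo. Their total was 3 to 5 for Docetaxel, 0 to 4 for Adapalene and 3 to 5 for Combo when 1 library was left out. The largest proportional changes came without Vehicle 2 for Docetaxel and without Vehicle 1 or Combo 3 for Combo. For Adapalene they came without any single Vehicle library, Adapalene 1 or Adapalene 2. Beside the DREAM and E2F totals with all libraries, 25.9%, 18.4% and 25.8% of all genes were called in either direction. The Adapalene total of that list was near its share. A link between cell cycle phase and the HMG levels was not tested.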

How the data were processed

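Polyadenylated RNA from 13 libraries was sequenced as stranded single reads of 120 bases, per the labels' protocols. The authors deposited raw counts per Ensembl gene. STAR 2.7.10a, FastQC, DESeq2 and GRCh38.p13 appear without roles in the submitters' processing notes. Which program counted reads, and how it treated strand and reads with several matches, remains not given in the sources used here. Symbols matched 61369 identifiers. Coordinates, transcripts and exon lengths are from GENCODE 29.

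Counts were filtered with filterByExpr (minimum count 10, minimum total 15), scaled by TMM and fitted with the edgeR 4.0.16 quasi-likelihood model in R 4.3.3, with 4 group means over all 13 libraries. It gave 7 comparisons, each adjusted by Benjamini-Hochberg over 15734 genes, and a gene is called at an adjusted p under 0.05. The script was checked on simulated counts. DESeq2 1.42.0 and limma 3.58.1 (voom with quality weights) were alternatives, besides those in the closing section. Pearson's r used log2 CPM with a prior count of 2. All 8 members are named, with up to 4 genes with values from each other list and the 5 nearest genes; 2 genes of these sets are not reported here. Members and lists were chosen with earlier results of these data known.

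Replicate numbers are not said to pair libraries. Same-numbered libraries deviated together between Vehicle and Combo (r of 0.159 to 0.257), and there the replicate block changed no member's call; in no other comparison did every pair exceed 0.1. No replicate pair agreed within sampling noise (chi-square per degree of freedom 2.37 to 23.5), so each library was counted once.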

Additional observations from a re-analysis of the deposited data

How the results depend on the processing

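Over all members and comparisons, values kept their direction and side of the threshold in 117 of 144 alternatives for Docetaxel against Vehicle, 122 of 136 for Adapalene, 128 of 136 for Combo, 124 of 144 for Combo against Docetaxel, 123 of 136 for Combo against Adapalene, 131 of 144 for Docetaxel against Adapalene and 182 of 184 for the interaction. The count of members called with Docetaxel was 3 with upper quartile scaling and 2 with the replicate block (HMGB2 and HMGA1), and 1 to 5 with single libraries left out. The block also ended the HMGN3 call in Combo against Docetaxel. Docetaxel 4 is alone in its block, so in both comparisons the block also takes that library out. With single libraries left out the count was 4 to 6 for Adapalene and 3 to 5 for Docetaxel against Adapalene. Fitting only the groups compared gave 5 for Adapalene, without HMGA1 and HMGN3 (edgeR adjusted p = 0.0659 and 0.0613). It also ended the HMGA1 call with Combo (adjusted p = 0.0881) and the HMGB3 call in Combo against Docetaxel (adjusted p = 0.0542). For the interaction it was 1, HMGB2, with limma-voom and without the libraries over 2% mitochondrial counts, where 9.42% and 4.01% of all genes were called. Direction changed for values near 0, none of them called. Without the mitochondrial libraries these were HMGA2 with Adapalene (0.0217), HMGA1 in Combo against Docetaxel (0.0778) and Docetaxel against Adapalene (−0.0447), and HMGB2 and HMGN3 in Combo against Adapalene (0.0146 and 0.0181). HMGA1 in Combo against Docetaxel was 0.0032 by library totals. In Combo against Adapalene limma-voom gave 0.0024 for HMGB2, −1e-04 for HMGA1 and 0.0304 for HMGN3, and the mitochondrial covariate −0.0036 for HMGB3 and −0.0322 for HMGA1. With the covariate HMGA1 in Docetaxel against Adapalene was −0.0069. With single libraries left out, HMGA1 ran from −0.1498 to 0.09 in Combo against Docetaxel and from −0.057 to 0.1429 in Docetaxel against Adapalene. In Combo against Adapalene HMGB3 ran from −0.0117 to 0.1415, HMGA1 from −0.1071 to 0.1331, HMGA2 from −0.143 to 0.041 and HMGN3 from −0.148 to 0.0394. The causes were not tested.

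Library totals alone moved the split of all calls to 2373 higher and 1466 lower for Docetaxel (2073 and 2009 with TMM), 1830 and 1023 for Adapalene (1455 and 1441) and 2671 and 1391 for Combo (2117 and 1941). Upper quartile scaling gave 2331 and 1543 for Docetaxel. With 3 or 4 technical replicates a group, the data leave changes within the printed intervals possible.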
